A study of Arabidopsis thaliana with 24 samples.

Results

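Plastids of plant cells make carotenoids, tocopherols and the isoprenoid units both are built from, and the 32 genes described here encode the enzymes of that route in leaves of Arabidopsis thaliana. The genes were chosen by name, from known pathway membership, out of 34218 genes measured by RNA-seq. Of the 32 genes, 31 had FPKM (fragments scaled to transcript length and library total, the deposited unit) of at least 1 in at least 4 libraries and were tested. The remaining gene, GGPS1, was listed at or near 0.

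The study asked which high-light responses of leaf transcripts depend on BBX32, a B-box protein, and HY5, a bZIP transcription factor. The plants were BBX32-10, a line that over-expresses BBX32, the null mutant hy5-2, and wild-type Col-0, the background shared by all. Each library came from the fully expanded leaves of 1 plant aged 35 days. High-light plants (HL) stood for 3.5 h in white light of about 1100 µmol m-2 s-1 from early in the day, and low-light plants (LL) stayed in their growth light of 150 µmol m-2 s-1. The 24 libraries form 6 groups of 4, HL and LL for each of BBX32-10, hy5-2 and Col-0. Both altered genotypes are 1 line each, and the promoter driving BBX32 is not given in the sources used here.

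The route begins with the methylerythritol phosphate (MEP) pathway, which turns pyruvate and glyceraldehyde phosphate into the 5-carbon units IPP and DMAPP inside the plastid. Condensation of these units gives geranylgeranyl diphosphate, from which phytoene synthase opens the carotenoid branch. Later steps desaturate, cyclise and hydroxylate the chain into lutein and the xanthophylls of the xanthophyll cycle, the pigments that dissipate excess light energy in leaves. Tocopherols join a phytyl chain to homogentisate, and they protect thylakoid lipids from oxidation.

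Library depth, recovered from the steps of the FPKM values, ranged from 35408724 to 49341933 fragments, and every tested gene of the set rested on at least 430 fragments in each library. The labels were checked on the targeted genes. In HL, BBX32 averaged 764 ± 299 FPKM in BBX32-10 against 15 ± 1.42 in Col-0, and in LL it averaged 845 ± 39.1 in BBX32-10 against 3.3 ± 0.787 in Col-0 (SD, n = 4 each). In HL, HY5 averaged 0.499 ± 0.313 FPKM in hy5-2 against 21.4 ± 3.29 in Col-0, and in LL it averaged 0.711 ± 0.293 in hy5-2 against 7.4 ± 0.899 in Col-0. HY5 was itself at 37.3 ± 6.73 FPKM in BBX32-10 HL and 36.9 ± 3.84 in BBX32-10 LL, above every Col-0 library. The summed level of 4 mesophyll genes was 16510.4 to 26318 FPKM in BBX32-10 HL and 19533 to 22975 in BBX32-10 LL. It was 29342 to 34575 FPKM in hy5-2 HL, the highest, and 23394 to 27562 in hy5-2 LL. In Col-0 it was 25417 to 29778 FPKM in HL and 21137 to 24244 in LL, and its part in any result was not tested. The 4 genes did not move together: in hy5-2 and Col-0, RBCS1A, RCA and CA1 had higher means in HL, and GAPA lower. GAPA averaged 1413 FPKM in hy5-2 HL and 1502 in hy5-2 LL, and 1277 in Col-0 HL and 1345 in Col-0 LL. The levels of 3 root hair genes stayed at or under 0.0754 FPKM and those of 2 flower genes under 1 FPKM. The summed level of 3 phloem companion cell genes was 161 to 202 FPKM in BBX32-10 HL and 188 to 208 in BBX32-10 LL, against 106 to 133 in Col-0 HL and 119.9 to 163 in Col-0 LL, and the part of this in any result was not tested. In leaf RNA, fewer cells of a type and less RNA per cell cannot be told apart. The libraries hy5-2 LL replicate 4 and BBX32-10 HL replicate 1 stood apart and touch several results. The median correlation of the first with the rest of its group was 0.975, against 0.986 to 0.989 for the other hy5-2 LL libraries. On the second principal component of all tested genes, BBX32-10 HL replicate 1 lay at −10.9. The other BBX32-10 HL libraries lay at 20 to 33.9. By median within-group correlation, BBX32-10 HL replicate 1 did not stand apart, at 0.966 against 0.964 to 0.976 for the others. BBX32 itself was at 364 FPKM in that library, against 719 to 1049 in the other BBX32-10 HL libraries; its part in any result was not tested.

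HL changed many of the tested genes in each genotype. In BBX32-10, 7 were higher and 6 lower in HL than in LL; of all 17788 tested genes, 10.7% were higher and 8.85% lower, 19.6% together. In hy5-2, 13 were higher and 7 lower, against 23.1% higher and 20.4% lower of all genes (43.5% together). In Col-0, 16 were higher and 7 lower, against 30.0% higher and 21.6% lower (51.6% together). All 3 counts stood above the shares of all genes in the higher direction. In the lower direction, the BBX32-10 count (6 of 31) also stood above its share (8.85%), and those of hy5-2 and Col-0 lay near theirs. No test was made in either direction. The median HL response (log2) of the 31 genes was 0.11 in BBX32-10, 0.29 in hy5-2 and 0.31 in Col-0, beside 0.02, 0.00 and 0.05 for all tested genes. In all 3 genotypes, 7 genes rose (BETA-OHASE2, HDS, HPPD, IPP2, MDS, VTE3 and VTE4) and 5 fell (ABA1, HDR, LUT2, NCED4 and VTE5). No HL response passed for 6 genes (ABA4, CCD1, DXR, IPP1, LYC and Z-ISO). Another 7 passed the same way in hy5-2 and Col-0 and did not pass in BBX32-10: BETA-OHASE1, CRTISO, DXS, LUT5, NPQ1, VTE1 and ZDS. Over all tested genes, calls were also fewer in BBX32-10 (19.6%) than in hy5-2 (43.5%) or Col-0 (51.6%). The share of all tested genes with each of these patterns was not computed, so none is read as particular to this set. For CRTISO and NPQ1, the BBX32-10 and Col-0 responses were not shown to differ. These counts are calls at an adjusted p under 0.05 by limma on log2(FPKM + 1), fitted on all 24 libraries and adjusted by Benjamini-Hochberg over all tested genes. Log2 values below are on that scale.

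**Figure D1:**
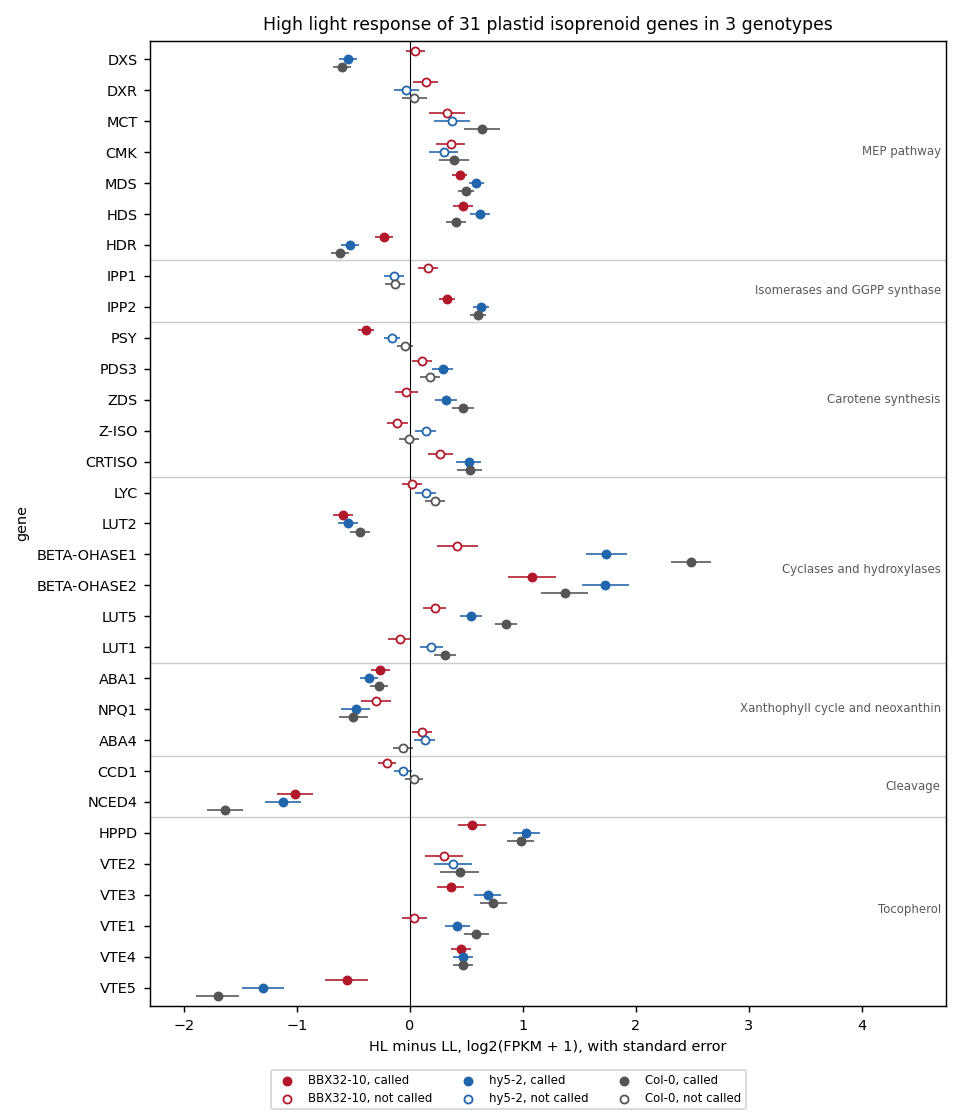
HL minus LL in log2(FPKM + 1) for the 31 tested genes, ordered by role, in BBX32-10, hy5-2 and Col-0. Points are fitted differences, bars their standard errors, and filled points passed the test; BETA-OHASE1 lies at 0.42 in BBX32-10, 1.74 in hy5-2 and 2.49 in Col-0.

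Against Col-0, BBX32-10 had 4 of the 31 genes higher and 6 lower in HL, where 10.9% of all tested genes were higher and 12.7% lower (23.6% together). In LL, 11 were higher and 7 lower, where 25.8% of all genes were higher and 16.7% lower (42.5% together). The median BBX32-10 minus Col-0 difference (log2) of the 31 genes was −0.06 in HL and 0.04 in LL, beside 0.02 and 0.10 for all tested genes. Dividing each library by its median ratio to all libraries changed the LL split to 8 higher and 8 lower. In hy5-2 against Col-0, 0 of 31 genes passed limma's test in LL, where 0.174% of all genes were higher and 0.197% lower (0.371% together), and 6 had an unadjusted p under 0.05 (VTE5, BETA-OHASE1, LUT5, CCD1, VTE4 and ABA4). Voom on recovered fragments also called 0 there. In HL, LUT5 and CCD1 were lower in hy5-2 than in Col-0, where 0.349% of all genes were higher and 2.06% lower (2.41% together). The HL response itself differed between BBX32-10 and Col-0 for 10 genes, 3 with a more positive and 7 with a more negative response in BBX32-10, where 6.95% and 12.9% of all genes passed in those directions (19.8% together). With the rescaled libraries, that split was 4 and 2. Between hy5-2 and Col-0, the response differed for 0 of 31 genes, where 0.0281% of all genes passed with a more positive and 0.624% with a more negative response in hy5-2 (0.652% together), and 3 had an unadjusted p under 0.05 (NCED4, BETA-OHASE1 and LUT5); voom called 0 as well.

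The MEP pathway holds 7 genes, all tested. In HL, 2 rose and 1 fell in BBX32-10, 2 rose and 2 fell in hy5-2, and 4 rose and 2 fell in Col-0. Of all tested genes, 19.6% passed in BBX32-10, 43.5% in hy5-2 and 51.6% in Col-0. DXS and HDR, the first and the last enzyme of the pathway, fell in hy5-2 and Col-0, MDS and HDS rose in both, and MCT and CMK rose in Col-0. DXS (AT4G15560, chromosome 4, 8883825 to 8887667, TAIR10) encodes 1-deoxyxylulose 5-phosphate synthase, the first enzyme and a known control point of the pathway. DXS had 157, 183, 206 and 204 FPKM in BBX32-10 HL, against 179, 175, 169.7 and 197 in BBX32-10 LL. In hy5-2, DXS had 139.8, 156, 149 and 162 FPKM in HL, against 231, 216, 210.1 and 231 in LL. In Col-0, DXS had 153, 143, 159 and 166 FPKM in HL, against 227, 234, 234 and 247 in LL. Every HL library lay below every LL library in hy5-2 and in Col-0, and the groups overlapped in BBX32-10. For DXS, HL minus LL was 0.05 (SE 0.08, adjusted p 0.699) in BBX32-10, −0.55 (SE 0.08, adjusted p 9.38e-06) in hy5-2 and −0.60 (SE 0.08, adjusted p 1.58e-06) in Col-0. Set against Col-0, DXS in BBX32-10 was at 0.26 (SE 0.08, adjusted p 0.0177) in HL and −0.39 (SE 0.08, adjusted p 0.000429) in LL. The direction was thus opposite in the 2 light levels, and the difference between the BBX32-10 and Col-0 responses was 0.65 (SE 0.11, adjusted p 0.000327). The DXS call in HL passed in 5 of 8 fits with 1 library left out (0.22 to 0.34), and was lost without BBX32-10 HL replicate 3, BBX32-10 HL replicate 4 or Col-0 HL replicate 2; it was also lost with rescaled libraries and with only those 2 groups fitted.

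HDR (AT4G34350, chromosome 4, 16428407 to 16431144) encodes the reductase that releases IPP and DMAPP at the end of the pathway. HDR had 187, 204, 186 and 220.2 FPKM in BBX32-10 HL, against 249, 236, 228 and 221 in BBX32-10 LL. In hy5-2, HDR had 157, 167, 149 and 174 FPKM in HL, against 223, 219.8, 223 and 269.8 in LL. In Col-0, HDR had 143, 159, 146 and 141 FPKM in HL, against 209.9, 228, 244 and 227 in LL. HL values lay below LL values without overlap in each genotype, with the narrowest gap in BBX32-10. For HDR, HL minus LL was −0.23 (SE 0.08, adjusted p 0.0405) in BBX32-10, −0.53 (SE 0.08, adjusted p 1.2e-05) in hy5-2 and −0.62 (SE 0.08, adjusted p 7.86e-07) in Col-0. The BBX32-10 call passed in 2 of 8 fits with 1 library left out (−0.28 to −0.20), and was lost with rescaled libraries and with only those 2 groups fitted. Set against Col-0, HDR in BBX32-10 was at 0.43 (SE 0.08, adjusted p 0.000333) in HL and 0.04 (SE 0.08, adjusted p 0.731) in LL. The BBX32-10 and Col-0 responses of HDR differed by 0.39 (SE 0.11, adjusted p 0.0134).

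HDS (AT5G60600, chromosome 5, 24358885 to 24363485) encodes the synthase one step before HDR. HDS had 214, 188, 191 and 214 FPKM in BBX32-10 HL, against 147, 144, 138 and 152 in BBX32-10 LL. In hy5-2, HDS had 235, 289, 283 and 317 FPKM in HL, against 201, 189.6, 184 and 154 in LL. In Col-0, HDS had 223, 225, 253 and 258 FPKM in HL, against 176, 169, 181 and 194 in LL. HDS was higher in HL without overlap in each genotype. For HDS, HL minus LL was 0.47 (SE 0.09, adjusted p 0.000893) in BBX32-10, 0.62 (SE 0.09, adjusted p 1.11e-05) in hy5-2 and 0.41 (SE 0.09, adjusted p 0.000631) in Col-0. Set against Col-0, HDS in BBX32-10 was at −0.25 (SE 0.09, adjusted p 0.0517) in HL and −0.30 (SE 0.09, adjusted p 0.0099) in LL.

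MCT (AT2G02500, chromosome 2, 670461 to 673327) encodes the cytidyl transferase that forms the diphosphocytidyl intermediate. MCT had 29.7, 28.9, 31.8 and 24.4 FPKM in BBX32-10 HL, against 22.7, 22, 21.6 and 23.8 in BBX32-10 LL. In hy5-2, MCT had 21, 22.3, 17.3 and 20.0 FPKM in HL, against 19.2, 19.3, 17 and 8.57 in LL. In Col-0, MCT had 28, 27.5, 25.3 and 27.3 FPKM in HL, against 15.8, 17.5, 16.7 and 18.2 in LL. HL and LL did not overlap in BBX32-10 or Col-0. In hy5-2 they did, and LL replicate 4 was far below the other LL libraries. For MCT, HL minus LL was 0.33 (SE 0.16, adjusted p 0.146) in BBX32-10, 0.37 (SE 0.16, adjusted p 0.0618) in hy5-2 and 0.64 (SE 0.16, adjusted p 0.00174) in Col-0. Without hy5-2 LL replicate 4, the difference between the hy5-2 and Col-0 responses of MCT was −0.52 (adjusted p 0.024), against −0.27 (SE 0.22, adjusted p 0.7) with it.

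The other 3 MEP genes encode the reductoisomerase (DXR), the kinase (CMK) and the cyclodiphosphate synthase (MDS). MDS averaged 141 ± 8.23 FPKM in BBX32-10 HL and 104 ± 4.14 in BBX32-10 LL, 177 ± 8.99 in hy5-2 HL and 117 ± 11.4 in hy5-2 LL, and 179 ± 14.7 in Col-0 HL and 126 ± 5.58 in Col-0 LL. MDS rose by 0.44 in BBX32-10, 0.59 in hy5-2 and 0.50 in Col-0 (log2; adjusted p 0.000262, 1.65e-06 and 7.97e-06). BBX32-10 minus Col-0 was −0.34 (SE 0.07, adjusted p 0.00211) for MDS in HL and −0.28 (SE 0.07, adjusted p 0.00475) in LL. CMK averaged 42.4 ± 4.62 FPKM in BBX32-10 HL and 32.8 ± 1.88 in BBX32-10 LL, 42.3 ± 2.42 in hy5-2 HL and 35 ± 8.75 in hy5-2 LL, and 46.1 ± 2.36 in Col-0 HL and 34.9 ± 1.75 in Col-0 LL. CMK passed in Col-0 (0.39 (SE 0.13, adjusted p 0.0141)) and missed the threshold in BBX32-10 (0.36 (SE 0.13, adjusted p 0.0547)) and hy5-2 (0.30 (SE 0.13, adjusted p 0.06)). The BBX32-10 value passed with genes averaging 5 FPKM or more, with rescaled libraries, with only those 2 groups fitted and with voom. Both values passed in some fits with 1 library left out. Leaving out hy5-2 LL replicate 4 instead lowered the hy5-2 value to 0.10 (adjusted p 0.303). DXR group means ran from 117 to 129 FPKM, and no comparison of DXR passed with all libraries. For CMK and DXR, hy5-2 LL replicate 4 had 22 and 81.9 FPKM, below every other library. With that library left out, DXR was lower in HL than in LL in hy5-2 (−0.21, adjusted p 0.0163). DXR was then also higher in hy5-2 than in BBX32-10 in LL (0.21, adjusted p 0.0203).

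**Figure D2:**
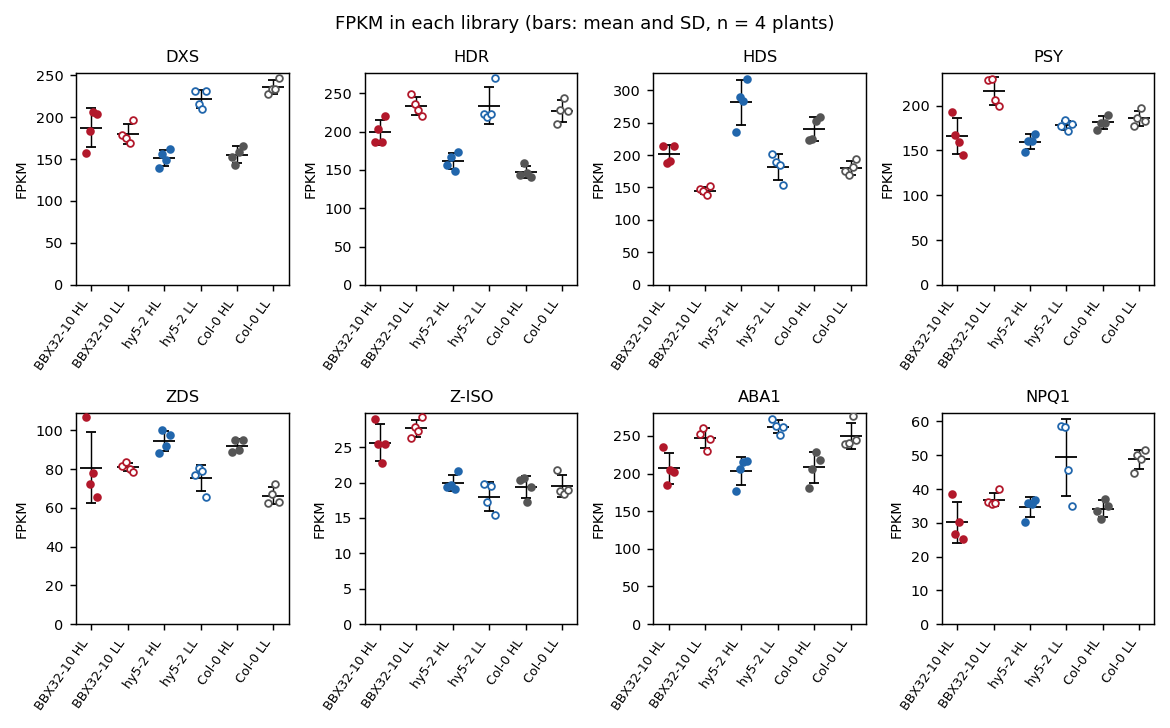
FPKM of 8 genes in each of the 24 libraries, from the first enzyme of the MEP pathway to the xanthophyll cycle; points are libraries and bars group means, with each genotype's HL group left of its LL group. DXS and HDR sit lower in HL in hy5-2 and Col-0, while Z-ISO sits higher in both BBX32-10 groups than in every other group.

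The isomerases IPP1 and IPP2 interconvert IPP and DMAPP, and GGPS1 encodes a geranylgeranyl diphosphate synthase. IPP2 ranged over 48.2 to 51.4 FPKM in BBX32-10 HL and 38.2 to 40.4 in BBX32-10 LL, 55.6 to 59.4 in hy5-2 HL and 31.3 to 39.6 in hy5-2 LL, and 54.6 to 58.9 in Col-0 HL and 34.9 to 39.8 in Col-0 LL. The HL response of IPP2 was 0.33 (SE 0.07, adjusted p 0.00107) in BBX32-10, 0.63 (SE 0.07, adjusted p 1.82e-07) in hy5-2 and 0.60 (SE 0.07, adjusted p 1.43e-07) in Col-0, higher without overlap in each. The BBX32-10 response minus the Col-0 response of IPP2 was −0.27 (SE 0.09, adjusted p 0.0473), a call that passed in 2 of 16 fits with 1 library left out (−0.30 to −0.24) and was lost with rescaled libraries, with the replicate number as a block and with voom. IPP1 group means ran from 22.1 to 25 FPKM and passed no comparison. The 2 isomerase transcripts share 89.1% identity over 704 aligned bases. Whether any reads were assigned to the wrong isomerase gene was not tested. IPP2 also overlaps AT3G02790, on the opposite strand, over 712 bases, and that gene was listed at a mean of 0 in every group. GGPS1 was at 0 FPKM in 22 of 24 libraries, with 0.0122 FPKM in BBX32-10 HL replicate 3 and 0.0544 FPKM in Col-0 LL replicate 3. An antisense gene, AT4G36808, covers 1529 bases of GGPS1 and was itself listed at a mean of at most 0.00368 FPKM in any group. Whether the counting removed reads of overlapping genes was not tested, so no level of GGPS1 is read from these zeros.

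Carotene synthesis, from phytoene to lycopene, holds 5 genes. In HL, PSY fell in BBX32-10, 3 genes rose in hy5-2, and 2 rose in Col-0. Among all tested genes, 8.85% fell in BBX32-10, 23.1% rose in hy5-2 and 30.0% rose in Col-0. PSY (AT5G17230, chromosome 5, 5659554 to 5662997) encodes phytoene synthase, the entry enzyme of the carotenoid branch. PSY had 193, 167, 159 and 145 FPKM in BBX32-10 HL, against 229, 229.8, 206 and 199 in BBX32-10 LL. In hy5-2, PSY had 148, 161, 161 and 168 FPKM in HL, against 177, 184, 172 and 180.0 in LL. In Col-0, PSY had 173, 181, 181 and 189.8 FPKM in HL, against 177, 186, 197 and 183 in LL. PSY was lower in HL in BBX32-10 and in hy5-2, without overlap but with narrow gaps, and the groups overlapped in Col-0. For PSY, HL minus LL was −0.39 (SE 0.07, adjusted p 0.000912) in BBX32-10, −0.16 (SE 0.07, adjusted p 0.0833) in hy5-2 and −0.04 (SE 0.07, adjusted p 0.707) in Col-0. Set against Col-0, PSY in BBX32-10 was at −0.13 (SE 0.07, adjusted p 0.206) in HL and 0.21 (SE 0.07, adjusted p 0.0245) in LL. The LL call passed in 4 of 8 fits with 1 library left out (0.18 to 0.25), and was lost with rescaled libraries. The BBX32-10 and Col-0 responses differed by −0.35 (SE 0.11, adjusted p 0.0228), a call that passed in 13 of 16 fits with 1 library left out (−0.42 to −0.29), and was lost without BBX32-10 LL replicate 1, BBX32-10 LL replicate 2 or BBX32-10 HL replicate 4; it was also lost with rescaled libraries. PSY overlaps 108 bases of GSTF12 on the opposite strand, whose mean was 211 FPKM in BBX32-10 HL and 172 in BBX32-10 LL, 25.4 in hy5-2 HL and 23.9 in hy5-2 LL, and 121 in Col-0 HL and 51.8 in Col-0 LL. The use of strand in the counting is not given in the sources used here, so reads from that overlap cannot be told apart.

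Z-ISO (AT1G10830, chromosome 1, 3605512 to 3607580) encodes the zeta-carotene isomerase, which acts between the desaturases. Z-ISO had 29, 25.4, 22.7 and 25.5 FPKM in BBX32-10 HL, against 26.3, 27.8, 27.3 and 29.2 in BBX32-10 LL. In hy5-2, Z-ISO had 19.4, 19.6, 19.1 and 21.6 FPKM in HL, against 19.8, 17.3, 19.5 and 15.4 in LL. In Col-0, Z-ISO had 20.3, 20.6, 17.2 and 19.4 FPKM in HL, against 21.8, 18.8, 18.4 and 19 in LL. Every BBX32-10 library lay above every Col-0 and hy5-2 library, and HL and LL overlapped in each genotype. Set against Col-0, Z-ISO in BBX32-10 was at 0.39 (SE 0.09, adjusted p 0.00235) in HL and 0.48 (SE 0.09, adjusted p 0.000109) in LL. No HL response of Z-ISO passed.

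PDS3 and ZDS encode the phytoene and zeta-carotene desaturases, and CRTISO the isomerase that yields lycopene. ZDS averaged 80.8 ± 18.4 FPKM in BBX32-10 HL and 81.1 ± 2.15 in BBX32-10 LL, 94.5 ± 5.26 in hy5-2 HL and 75.6 ± 6.67 in hy5-2 LL, and 92.1 ± 3.32 in Col-0 HL and 66.3 ± 4.38 in Col-0 LL. ZDS rose in hy5-2 (0.32 (SE 0.10, adjusted p 0.0145)) and in Col-0 (0.47 (SE 0.10, adjusted p 0.000604)), and its HL response in BBX32-10 was −0.03 (SE 0.10, adjusted p 0.875). The hy5-2 call was lost without hy5-2 LL replicate 4 (0.26 (adjusted p 0.0549)). The BBX32-10 response differed from that of Col-0 by −0.50 (SE 0.15, adjusted p 0.0183), and by −0.64 (adjusted p 0.000118) without BBX32-10 HL replicate 1, which held 107 FPKM against 65.4 to 78.2 in the other BBX32-10 HL libraries. The call was lost with rescaled libraries. CRTISO averaged 25.2 ± 2.19 FPKM in BBX32-10 HL and 20.6 ± 0.979 in BBX32-10 LL, 26.2 ± 0.435 in hy5-2 HL and 18.3 ± 3.95 in hy5-2 LL, and 27.7 ± 1.52 in Col-0 HL and 18.9 ± 1.66 in Col-0 LL. CRTISO rose in hy5-2 (0.52 (SE 0.11, adjusted p 0.000671)) and Col-0 (0.53 (SE 0.11, adjusted p 0.000404)) and was at 0.27 (SE 0.11, adjusted p 0.0912) in BBX32-10. In BBX32-10 its HL libraries lay above its LL libraries without overlap, and the BBX32-10 and Col-0 responses were not shown to differ. PDS3 rose in hy5-2 alone (0.29 (SE 0.09, adjusted p 0.0109)), beside 0.18 (SE 0.09, adjusted p 0.0957) in Col-0 and 0.11 (SE 0.09, adjusted p 0.437) in BBX32-10, and its response was not shown to differ between genotypes.

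Cyclases and hydroxylases decide between lutein and the xanthophyll cycle pigments, and this group of 6 held the widest changes. In HL, 1 rose and 1 fell in BBX32-10, 3 rose and 1 fell in hy5-2, and 4 rose and 1 fell in Col-0. The share of all tested genes that passed was 19.6% in BBX32-10, 43.5% in hy5-2 and 51.6% in Col-0. In LL, 5 of the 6 were higher in BBX32-10 than in Col-0, where 25.8% of all tested genes were higher. The promoters of the 2 beta-carotene hydroxylase genes are shown because the genes share a function and both rose in HL in hy5-2 and Col-0, but differ in sequence. LUT5 is shown because it passed against Col-0 in both altered lines, as CCD1 also did. Each sequence runs from 250 bases before to 50 after the annotated start in the RefSeq copy of TAIR10.1, with capitals marking each ACGT core, or CACGTG where the core sits in a G-box, the motif bound by HY5 and other bZIP and bHLH factors. BETA-OHASE1 lies at chr4:13096000-13096299, minus strand, BETA-OHASE2 at chr5:21337077-21337376, minus strand and LUT5 at chr1:11396152-11396451, plus strand.
BETA-OHASE1: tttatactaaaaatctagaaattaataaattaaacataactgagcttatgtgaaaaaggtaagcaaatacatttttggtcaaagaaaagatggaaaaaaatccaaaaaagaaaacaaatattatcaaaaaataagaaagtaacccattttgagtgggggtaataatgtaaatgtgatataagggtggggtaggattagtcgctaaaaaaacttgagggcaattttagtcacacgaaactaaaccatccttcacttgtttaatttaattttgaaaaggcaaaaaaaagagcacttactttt
BETA-OHASE2: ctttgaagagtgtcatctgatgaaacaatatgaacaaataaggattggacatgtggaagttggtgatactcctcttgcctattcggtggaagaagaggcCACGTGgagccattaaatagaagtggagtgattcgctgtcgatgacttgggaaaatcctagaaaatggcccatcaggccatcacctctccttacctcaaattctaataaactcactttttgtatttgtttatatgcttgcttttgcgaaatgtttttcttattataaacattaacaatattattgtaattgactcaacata
LUT5: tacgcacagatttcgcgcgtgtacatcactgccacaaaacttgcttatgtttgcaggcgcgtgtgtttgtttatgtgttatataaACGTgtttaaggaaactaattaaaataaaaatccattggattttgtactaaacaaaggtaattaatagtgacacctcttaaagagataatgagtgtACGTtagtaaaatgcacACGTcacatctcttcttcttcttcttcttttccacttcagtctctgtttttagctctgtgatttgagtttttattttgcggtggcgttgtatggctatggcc
The BETA-OHASE1 window holds no ACGT on either strand, the LUT5 window 3 ACGT cores outside a G-box, and the BETA-OHASE2 window 1 CACGTG beginning 151 bases before the start. CACGTG was found in 4 of the 32 windows, or 12.5%, beside 7.68% of 27443 protein-coding promoters. ACGT, which includes every CACGTG, was found in 18 of 32 windows, or 56.2%, beside 49.9%. A match is a description of these letters and shows no binding.

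BETA-OHASE1 (AT4G25700, chromosome 4, 13093869 to 13096049) encodes a non-haem beta-carotene hydroxylase that makes zeaxanthin. BETA-OHASE1 had 135, 67.8, 61.6 and 56.7 FPKM in BBX32-10 HL, against 65.7, 62.3, 49.8 and 48.8 in BBX32-10 LL. In hy5-2, BETA-OHASE1 had 93.5, 102, 88.4 and 109 FPKM in HL, against 29.5, 27.1, 31.6 and 26.8 in LL. In Col-0, BETA-OHASE1 had 113, 112, 89.5 and 96.8 FPKM in HL, against 15.3, 16.9, 20.4 and 17.3 in LL. In hy5-2 and Col-0 every HL library was far above every LL library. In BBX32-10 the LL libraries were already above every hy5-2 and Col-0 LL library, and 1 HL library stood far above the other 3. For BETA-OHASE1, HL minus LL was 0.42 (SE 0.18, adjusted p 0.11) in BBX32-10, 1.74 (SE 0.18, adjusted p 1.64e-07) in hy5-2 and 2.49 (SE 0.18, adjusted p 4.98e-10) in Col-0. Set against Col-0, BETA-OHASE1 in BBX32-10 was at −0.44 (SE 0.18, adjusted p 0.0826) in HL and 1.64 (SE 0.18, adjusted p 2.65e-07) in LL. The BBX32-10 and Col-0 responses differed by −2.07 (SE 0.25, adjusted p 1.46e-05), the largest difference of responses in the set. Without BBX32-10 HL replicate 1, BBX32-10 minus Col-0 in HL was −0.72 (adjusted p 7.73e-05), lower in BBX32-10, and the difference of responses was −2.35 (adjusted p 4.45e-09). In hy5-2, LL values were above all Col-0 LL values without passing the test (0.69 (SE 0.18, adjusted p 0.1)); with only those 2 groups fitted, the call passed at adjusted p 0.0343.

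BETA-OHASE2 (AT5G52570, chromosome 5, 21334793 to 21337126) encodes the second hydroxylase of this kind. BETA-OHASE2 had 47.3, 85.2, 38.9 and 87.2 FPKM in BBX32-10 HL, against 29.6, 31.6, 23 and 30.0 in BBX32-10 LL. In hy5-2, BETA-OHASE2 had 53.6, 74, 43.8 and 72.8 FPKM in HL, against 19.2, 16.8, 18.6 and 15 in LL. In Col-0, BETA-OHASE2 had 43.3, 40.0, 42.2 and 46.4 FPKM in HL, against 19.5, 12.9, 13.3 and 19.3 in LL. HL was above LL without overlap in each genotype, and the HL libraries of BBX32-10 and hy5-2 spread more widely than those of Col-0. For BETA-OHASE2, HL minus LL was 1.08 (SE 0.21, adjusted p 0.00107) in BBX32-10, 1.73 (SE 0.21, adjusted p 1.38e-06) in hy5-2 and 1.37 (SE 0.21, adjusted p 1.34e-05) in Col-0. Set against Col-0, BETA-OHASE2 in BBX32-10 was at 0.49 (SE 0.21, adjusted p 0.0968) in HL and 0.79 (SE 0.21, adjusted p 0.00488) in LL. The BBX32-10 and Col-0 responses of BETA-OHASE2 differed by −0.30 (SE 0.30, adjusted p 0.547), which did not pass. The 2 hydroxylase transcripts share 87.4% identity over 390 aligned bases. Within libraries, the FPKM ratio of BETA-OHASE1 to BETA-OHASE2 averaged 1.47 in BBX32-10 HL and 2 in BBX32-10 LL. It averaged 1.66 in both hy5-2 groups, 2.4 in Col-0 HL and 1.13 in Col-0 LL. The BBX32-10 HL libraries ranged widely, from 0.65 to 2.86, against 1.63 to 2.22 in BBX32-10 LL.

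LUT5 (AT1G31800, chromosome 1, 11396402 to 11399714) encodes CYP97A3, a cytochrome P450 that hydroxylates the beta ring on the way to lutein. LUT5 had 121, 109, 104 and 90.8 FPKM in BBX32-10 HL, against 93, 90.9, 86.9 and 90.8 in BBX32-10 LL. In hy5-2, LUT5 had 63.1, 70.2, 64.4 and 70.0 FPKM in HL, against 52.1, 49.4, 49.6 and 34.1 in LL. In Col-0, LUT5 had 110.4, 108, 108 and 114 FPKM in HL, against 56, 62.5, 60.7 and 64.2 in LL. In HL, every hy5-2 library lay below every BBX32-10 and Col-0 library. In LL, every BBX32-10 library lay above, and every hy5-2 library below, those of Col-0. For LUT5, HL minus LL was 0.22 (SE 0.10, adjusted p 0.124) in BBX32-10, 0.54 (SE 0.10, adjusted p 0.00017) in hy5-2 and 0.85 (SE 0.10, adjusted p 4.01e-07) in Col-0. Set against Col-0, LUT5 in BBX32-10 was at −0.06 (SE 0.10, adjusted p 0.707) in HL and 0.57 (SE 0.10, adjusted p 0.000109) in LL. For hy5-2 minus Col-0, LUT5 was at −0.71 (SE 0.10, adjusted p 0.000152) in HL and −0.40 (SE 0.10, adjusted p 0.0821) in LL. The LL difference passed without hy5-2 LL replicate 1, at −0.47 (adjusted p 0.0481). It shrank to −0.27 (adjusted p 0.194) without hy5-2 LL replicate 4, which held 34.1 FPKM. The BBX32-10 response minus the Col-0 response of LUT5 was −0.63 (SE 0.14, adjusted p 0.00351). In hy5-2 it differed from Col-0 by −0.31 (SE 0.14, adjusted p 0.388), and by −0.45 (adjusted p 0.0249) without hy5-2 LL replicate 4.

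LUT1 encodes CYP97C1, the epsilon-ring hydroxylase that completes lutein. LUT1 averaged 19.5 ± 3.86 FPKM in BBX32-10 HL and 20.6 ± 0.948 in BBX32-10 LL, 14.4 ± 1.16 in hy5-2 HL and 12.5 ± 0.756 in hy5-2 LL, and 17.9 ± 1.34 in Col-0 HL and 14.3 ± 1.08 in Col-0 LL. LUT1 rose in Col-0 by 0.31 (SE 0.10, adjusted p 0.0126), and this call was lost with rescaled libraries. It was higher in BBX32-10 than in Col-0 in LL (0.50 (SE 0.10, adjusted p 0.000325)) and not in HL (0.10 (SE 0.10, adjusted p 0.494)). The difference of the BBX32-10 and Col-0 responses, −0.40 (SE 0.14, adjusted p 0.0467), passed in 2 of 16 fits with 1 library left out (−0.52 to −0.30) and was lost with no filter on low values, with rescaled libraries, with only the 4 groups fitted and with the replicate number as a block. LUT1 overlaps AT3G53140 on the same strand over 1900 bases, and AT3G53140 was listed at 0 in every group, so the LUT1 level depends on how the counting handled that stretch.

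LUT2 (AT5G57030, chromosome 5, 23077120 to 23080096) encodes lycopene epsilon-cyclase, which commits lycopene to the lutein branch. LUT2 had 46.7, 46.6, 55.1 and 43.2 FPKM in BBX32-10 HL, against 74.6, 73.2, 69 and 72 in BBX32-10 LL. In hy5-2, LUT2 had 33.2, 35.7, 34.7 and 33.8 FPKM in HL, against 53.8, 53.7, 55.6 and 41 in LL. In Col-0, LUT2 had 39.2, 39.4, 38.1 and 39.7 FPKM in HL, against 46.1, 54.3, 57.9 and 55.8 in LL. LUT2 was lower in HL in each genotype without overlap, and the BBX32-10 libraries lay above those of Col-0 in each light level. For LUT2, HL minus LL was −0.59 (SE 0.09, adjusted p 7.03e-05) in BBX32-10, −0.55 (SE 0.09, adjusted p 3.41e-05) in hy5-2 and −0.44 (SE 0.09, adjusted p 0.000247) in Col-0. Set against Col-0, LUT2 in BBX32-10 was at 0.28 (SE 0.09, adjusted p 0.0236) in HL and 0.43 (SE 0.09, adjusted p 0.000475) in LL. The HL call of BBX32-10 against Col-0 passed in 6 of 8 fits with 1 library left out (0.21 to 0.33), and was lost without BBX32-10 HL replicate 3 or Col-0 HL replicate 3, and with only those 2 groups fitted.

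LYC (AT3G10230, chromosome 3, 3164075 to 3166038) encodes lycopene beta-cyclase, the other side of this branch point. LYC had 50.6, 34.9, 39.5 and 34.7 FPKM in BBX32-10 HL, against 41, 39.1, 36.1 and 40.2 in BBX32-10 LL. In hy5-2, LYC had 48.4, 52.2, 54.3 and 52.4 FPKM in HL, against 44.4, 47.1, 43.2 and 53.3 in LL. In Col-0, LYC had 43.7, 48.6, 52 and 50.2 FPKM in HL, against 41.1, 40.1, 43.9 and 40.8 in LL. HL and LL values of LYC overlapped in each genotype. For LYC, HL minus LL was 0.02 (SE 0.09, adjusted p 0.927) in BBX32-10, 0.14 (SE 0.09, adjusted p 0.229) in hy5-2 and 0.22 (SE 0.09, adjusted p 0.0537) in Col-0. Relative to Col-0, LYC in BBX32-10 was at −0.29 (SE 0.09, adjusted p 0.028) in HL and −0.09 (SE 0.09, adjusted p 0.492) in LL. The HL call passed in 2 of 8 fits with 1 library left out (−0.41 to −0.23), and was lost with rescaled libraries and with only those 2 groups fitted. Within libraries, the FPKM ratio of LYC to LUT2 averaged 0.839 in BBX32-10 HL and 0.541 in BBX32-10 LL, 1.51 in hy5-2 HL and 0.945 in hy5-2 LL, and 1.24 in Col-0 HL and 0.78 in Col-0 LL. The ratio was thus higher in HL than in LL in each genotype and lowest in BBX32-10 in each light level, given here as a description.

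**Figure D3:**
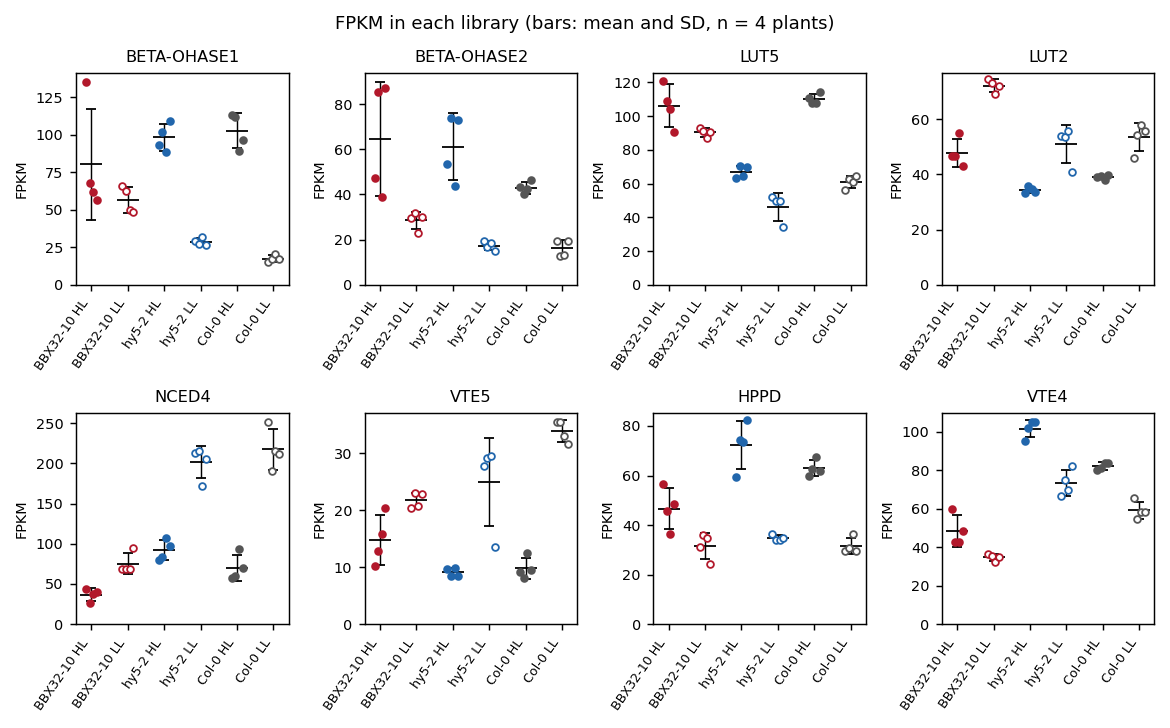
FPKM of 8 genes of carotenoid cyclisation, hydroxylation and cleavage and of tocopherol synthesis in each of the 24 libraries. Points are libraries and bars group means, with each genotype's HL group left of its LL group. BETA-OHASE1 in BBX32-10 LL (48.8 to 65.7 FPKM) lies above Col-0 LL (15.3 to 20.4 FPKM), and NCED4 in BBX32-10 LL (68.2 to 95.3 FPKM) lies below Col-0 LL (190.3 to 252 FPKM).

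The xanthophyll cycle is run by 2 enzymes acting in opposite directions. Zeaxanthin epoxidase, encoded by ABA1 (AT5G67030, chromosome 5, 26753469 to 26757402), removes zeaxanthin in low light, and violaxanthin de-epoxidase, encoded by NPQ1 (AT1G08550, chromosome 1, 2706868 to 2709988), makes it in excess light. ABA1 had 235, 185, 205 and 202 FPKM in BBX32-10 HL, against 252, 261, 230.0 and 246 in BBX32-10 LL. In hy5-2, ABA1 had 177, 206, 215 and 217 FPKM in HL, against 272, 263, 251 and 262 in LL. In Col-0, ABA1 had 180.5, 206, 229 and 218 FPKM in HL, against 239, 241, 276 and 245 in LL. ABA1 was lower in HL without overlap in hy5-2 and Col-0, and 1 HL library overlapped the LL range in BBX32-10. For ABA1, HL minus LL was −0.26 (SE 0.08, adjusted p 0.0323) in BBX32-10, −0.36 (SE 0.08, adjusted p 0.00138) in hy5-2 and −0.27 (SE 0.08, adjusted p 0.0107) in Col-0. The BBX32-10 call passed in 2 of 8 fits with 1 library left out (−0.32 to −0.21), and was lost with rescaled libraries and with only those 2 groups fitted. The Col-0 call was lost without Col-0 HL replicate 1. Between BBX32-10 and Col-0, ABA1 did not pass in either light level (−0.01 (SE 0.08, adjusted p 0.949) in HL).

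NPQ1 had 38.6, 26.6, 30.3 and 25.2 FPKM in BBX32-10 HL, against 36.3, 35.5, 35.8 and 39.9 in BBX32-10 LL. In hy5-2, NPQ1 had 30.3, 35.8, 35.7 and 36.7 FPKM in HL, against 58.6, 58.5, 45.5 and 35 in LL. In Col-0, NPQ1 had 33.4, 31.2, 37.1 and 34.9 FPKM in HL, against 44.8, 50.1, 48.9 and 51.4 in LL. NPQ1 was lower in HL without overlap in Col-0 alone, and the hy5-2 LL libraries ranged widely. For NPQ1, HL minus LL was −0.30 (SE 0.13, adjusted p 0.118) in BBX32-10, −0.48 (SE 0.13, adjusted p 0.0058) in hy5-2 and −0.50 (SE 0.13, adjusted p 0.00285) in Col-0. Set against Col-0, NPQ1 in BBX32-10 was at −0.19 (SE 0.13, adjusted p 0.324) in HL and −0.39 (SE 0.13, adjusted p 0.0198) in LL. The responses of BBX32-10 and Col-0 were not shown to differ (0.21 (SE 0.19, adjusted p 0.49)). NPQ1 overlaps 464 bases of AT1G08560 on the opposite strand, a gene at group means of 2.78 to 5.35 FPKM. ABA4, needed for neoxanthin, had group means of 19.1 to 23 FPKM and passed no comparison.

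The 2 carotenoid cleavage genes differed from Col-0 in opposite directions in BBX32-10 LL, NCED4 lower and CCD1 higher. NCED4 (AT4G19170, chromosome 4, 10481619 to 10483879) encodes the plastid dioxygenase also called CCD4, which degrades carotenoids. NCED4 had 44.1, 25.8, 37 and 40.4 FPKM in BBX32-10 HL, against 68.2, 69.2, 68.2 and 95.3 in BBX32-10 LL. In hy5-2, NCED4 had 80.1, 83.2, 107 and 97.8 FPKM in HL, against 213, 215, 172 and 205 in LL. In Col-0, NCED4 had 57.5, 59.3, 92.9 and 69.8 FPKM in HL, against 252, 190.3, 216 and 212 in LL. NCED4 was lower in HL without overlap in each genotype, and the BBX32-10 libraries lay below those of Col-0 in each light level. For NCED4, HL minus LL was −1.02 (SE 0.16, adjusted p 0.000112) in BBX32-10, −1.12 (SE 0.16, adjusted p 8.46e-06) in hy5-2 and −1.64 (SE 0.16, adjusted p 2.77e-08) in Col-0. Set against Col-0, NCED4 in BBX32-10 was at −0.91 (SE 0.16, adjusted p 0.000294) in HL and −1.53 (SE 0.16, adjusted p 1.38e-07) in LL. BBX32-10 had 0.527 times the Col-0 mean in HL and 0.346 times in LL. The BBX32-10 and Col-0 responses of NCED4 differed by 0.62 (SE 0.23, adjusted p 0.0562), which did not pass; it passed when genes were filtered at a mean FPKM of at least 5.

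CCD1 (AT3G63520, chromosome 3, 23452808 to 23456078) encodes a dioxygenase outside the plastid that cleaves carotenoids into volatile apocarotenoids. CCD1 had 177, 160.4, 164 and 174 FPKM in BBX32-10 HL, against 195, 209, 181 and 191 in BBX32-10 LL. In hy5-2, CCD1 had 109, 119, 129 and 131 FPKM in HL, against 141, 129, 122 and 115 in LL. In Col-0, CCD1 had 141, 146, 159.8 and 164 FPKM in HL, against 142, 144, 158 and 149.9 in LL. CCD1 was higher in every BBX32-10 LL library, and lower in every hy5-2 LL library, than in all Col-0 LL libraries, and in HL every hy5-2 library was below every Col-0 library. Relative to Col-0, CCD1 in BBX32-10 was at 0.14 (SE 0.08, adjusted p 0.176) in HL and 0.38 (SE 0.08, adjusted p 0.000345) in LL. For hy5-2 minus Col-0, CCD1 was at −0.32 (SE 0.08, adjusted p 0.0202) in HL and −0.23 (SE 0.08, adjusted p 0.189) in LL. The hy5-2 call in HL passed in 4 of 8 fits with 1 library left out (−0.36 to −0.27), and was lost with rescaled libraries and with only those 2 groups fitted. No HL response of CCD1 passed, with values of −0.20 in BBX32-10, −0.06 in hy5-2 and 0.04 in Col-0. The within-library FPKM ratio of CCD1 to NCED4 averaged 4.74 in BBX32-10 HL and 2.63 in BBX32-10 LL, 1.33 in hy5-2 HL and 0.633 in hy5-2 LL, and 2.25 in Col-0 HL and 0.691 in Col-0 LL.

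Tocopherol synthesis holds 6 genes. In HL, 3 rose and 1 fell in BBX32-10, 4 rose and 1 fell in hy5-2, and 5 rose and 1 fell in Col-0. The gene that fell was VTE5 in each. Beside these counts, 19.6% of all tested genes passed in BBX32-10, 43.5% in hy5-2 and 51.6% in Col-0. HPPD (AT1G06570, chromosome 1, 2011885 to 2013545) encodes hydroxyphenylpyruvate dioxygenase, which makes the homogentisate head group. HPPD had 56.5, 45.6, 36.2 and 48.3 FPKM in BBX32-10 HL, against 31.2, 36, 34.9 and 24.1 in BBX32-10 LL. In hy5-2, HPPD had 59.3, 74.3, 73.7 and 82.5 FPKM in HL, against 36.3, 34, 34.1 and 34.8 in LL. In Col-0, HPPD had 59.8, 62.5, 67.3 and 62 FPKM in HL, against 29.6, 30.7, 36.3 and 29.4 in LL. HPPD was higher in HL without overlap in each genotype. For HPPD, HL minus LL was 0.55 (SE 0.12, adjusted p 0.00328) in BBX32-10, 1.03 (SE 0.12, adjusted p 1.07e-06) in hy5-2 and 0.98 (SE 0.12, adjusted p 1.03e-06) in Col-0. The BBX32-10 call was lost with only those 2 groups fitted (adjusted p 0.0572). Set against Col-0, HPPD in BBX32-10 was at −0.44 (SE 0.12, adjusted p 0.0128) in HL and −0.01 (SE 0.12, adjusted p 0.958) in LL. The HL call of BBX32-10 against Col-0 passed in 7 of 8 fits with 1 library left out (−0.54 to −0.33), and was lost without BBX32-10 HL replicate 3, and with only those 2 groups fitted.

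VTE5 (AT5G04490, chromosome 5, 1279577 to 1281746) encodes phytol kinase, which recycles phytol released from chlorophyll. VTE5 had 10.2, 12.8, 15.9 and 20.3 FPKM in BBX32-10 HL, against 20.4, 23, 20.7 and 22.8 in BBX32-10 LL. In hy5-2, VTE5 had 9.61, 8.47, 9.81 and 8.48 FPKM in HL, against 27.8, 29.1, 29.5 and 13.5 in LL. In Col-0, VTE5 had 9.21, 8.05, 12.4 and 9.56 FPKM in HL, against 35.4, 35.4, 33 and 31.6 in LL. VTE5 was lower in HL without overlap in each genotype, with 1 hy5-2 LL library far below the other 3. For VTE5, HL minus LL was −0.56 (SE 0.19, adjusted p 0.0418) in BBX32-10, −1.30 (SE 0.19, adjusted p 1.27e-05) in hy5-2 and −1.70 (SE 0.19, adjusted p 2.07e-07) in Col-0. The BBX32-10 call passed in 2 of 8 fits with 1 library left out (−0.72 to −0.41), and was lost with no filter on low values, with only those 2 groups fitted and with the replicate number as a block. Set against Col-0, VTE5 in BBX32-10 was at 0.52 (SE 0.19, adjusted p 0.0513) in HL and −0.62 (SE 0.19, adjusted p 0.0129) in LL. The HL difference from Col-0 passed with 0.1 as pseudocount, with genes averaging 5 FPKM or more, with rescaled libraries, and without BBX32-10 HL replicate 1 or Col-0 HL replicate 3. The response of VTE5 was less negative in BBX32-10 than in Col-0, with a difference of 1.14 (SE 0.27, adjusted p 0.0049), a call kept in each fit with 1 library left out.

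VTE4 (AT1G64970, chromosome 1, 24134085 to 24136109) encodes the methyltransferase that makes alpha-tocopherol, the main form in leaves. VTE4 had 60.0, 42.9, 42.5 and 48.5 FPKM in BBX32-10 HL, against 36.3, 35.4, 32.4 and 35.1 in BBX32-10 LL. In hy5-2, VTE4 had 95.2, 102, 105 and 105 FPKM in HL, against 66.6, 74.9, 69.7 and 82.5 in LL. In Col-0, VTE4 had 80.2, 81, 83.7 and 84.1 FPKM in HL, against 65.6, 54.5, 58.3 and 58.2 in LL. HL was above LL without overlap in each genotype, and in each light level every BBX32-10 library lay below, and every hy5-2 library above, those of Col-0. For VTE4, HL minus LL was 0.45 (SE 0.09, adjusted p 0.00109) in BBX32-10, 0.47 (SE 0.09, adjusted p 0.000228) in hy5-2 and 0.47 (SE 0.09, adjusted p 0.000145) in Col-0. Set against Col-0, VTE4 in BBX32-10 was at −0.76 (SE 0.09, adjusted p 3.38e-06) in HL and −0.75 (SE 0.09, adjusted p 8.83e-07) in LL. For hy5-2 minus Col-0, VTE4 was at 0.30 (SE 0.09, adjusted p 0.0789) in HL and 0.31 (SE 0.09, adjusted p 0.143) in LL, which did not pass. VTE4 overlaps AT1G08733 over 496 bases, and that gene was listed under 1 FPKM in the mean of every group.

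VTE1 (AT4G32770, chromosome 4, 15804784 to 15808084) encodes tocopherol cyclase. VTE1 had 70.6, 49.3, 49.5 and 46 FPKM in BBX32-10 HL, against 55.3, 51.7, 48.9 and 50.5 in BBX32-10 LL. In hy5-2, VTE1 had 55.4, 67.2, 57.3 and 68.8 FPKM in HL, against 50.6, 42.2, 45.9 and 46.3 in LL. In Col-0, VTE1 had 63.2, 59.7, 62 and 64 FPKM in HL, against 37.1, 36.7, 49.4 and 41.8 in LL. HL was above LL without overlap in hy5-2 and Col-0, and in BBX32-10 the groups overlapped, with 1 HL library far above the others. For VTE1, HL minus LL was 0.04 (SE 0.11, adjusted p 0.836) in BBX32-10, 0.42 (SE 0.11, adjusted p 0.00446) in hy5-2 and 0.59 (SE 0.11, adjusted p 0.000129) in Col-0. Relative to Col-0, VTE1 in BBX32-10 was at −0.22 (SE 0.11, adjusted p 0.151) in HL and 0.33 (SE 0.11, adjusted p 0.0225) in LL. The LL call passed in 5 of 8 fits with 1 library left out (0.27 to 0.41), and was lost without BBX32-10 LL replicate 1, Col-0 LL replicate 1 or Col-0 LL replicate 2, and was lost with rescaled libraries. The responses of BBX32-10 and Col-0 differed by −0.55 (SE 0.16, adjusted p 0.0166), and by −0.69 (adjusted p 0.000478) without BBX32-10 HL replicate 1. With rescaled libraries, the difference of responses was not called.

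VTE2 (AT2G18950, chromosome 2, 8207199 to 8210513) encodes homogentisate phytyltransferase, the entry step of the tocopherol branch. VTE2 had 23.3, 38.5, 28.8 and 38.6 FPKM in BBX32-10 HL, against 24.4, 25, 30.4 and 22.8 in BBX32-10 LL. In hy5-2, VTE2 had 26.7, 24.1, 22.8 and 20.9 FPKM in HL, against 19.2, 19, 24.1 and 11.4 in LL. In Col-0, VTE2 had 25.2, 22.3, 26.7 and 24.8 FPKM in HL, against 18.5, 17, 15.5 and 21.7 in LL. In Col-0 and in LL between BBX32-10 and Col-0 the groups did not overlap, and in BBX32-10 and hy5-2 HL and LL did. For VTE2, HL minus LL was 0.30 (SE 0.17, adjusted p 0.237) in BBX32-10, 0.38 (SE 0.17, adjusted p 0.0742) in hy5-2 and 0.44 (SE 0.17, adjusted p 0.037) in Col-0. The Col-0 call passed in 2 of 8 fits with 1 library left out (0.37 to 0.52), and was lost with no filter on low values and with the replicate number as a block. Relative to Col-0, VTE2 in BBX32-10 was at 0.34 (SE 0.17, adjusted p 0.153) in HL and 0.48 (SE 0.17, adjusted p 0.0275) in LL. The LL call passed in 5 of 8 fits with 1 library left out (0.40 to 0.56), and was lost without BBX32-10 LL replicate 3, Col-0 LL replicate 2 or Col-0 LL replicate 3.

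VTE3 encodes the methyltransferase of tocopherol and plastoquinone synthesis and had the highest mean of the set in every group. VTE3 averaged 384 ± 107 FPKM in BBX32-10 HL and 291 ± 17.6 in BBX32-10 LL, 544 ± 43.7 in hy5-2 HL and 335 ± 16.4 in hy5-2 LL, and 504 ± 40.3 in Col-0 HL and 299.9 ± 10.5 in Col-0 LL. VTE3 rose by 0.69 (SE 0.12, adjusted p 9.45e-05) in hy5-2 and 0.74 (SE 0.12, adjusted p 2.73e-05) in Col-0. The BBX32-10 response, 0.36 (SE 0.12, adjusted p 0.04), passed in 1 of 8 fits with 1 library left out (0.19 to 0.50), and was lost with no filter on low values, with rescaled libraries and with only those 2 groups fitted. VTE3 was lower in BBX32-10 than in Col-0 in HL (−0.42 (SE 0.12, adjusted p 0.0143)), and the call was lost without BBX32-10 HL replicate 4 (−0.29) and with only those 2 groups fitted.

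**Figure D4:**
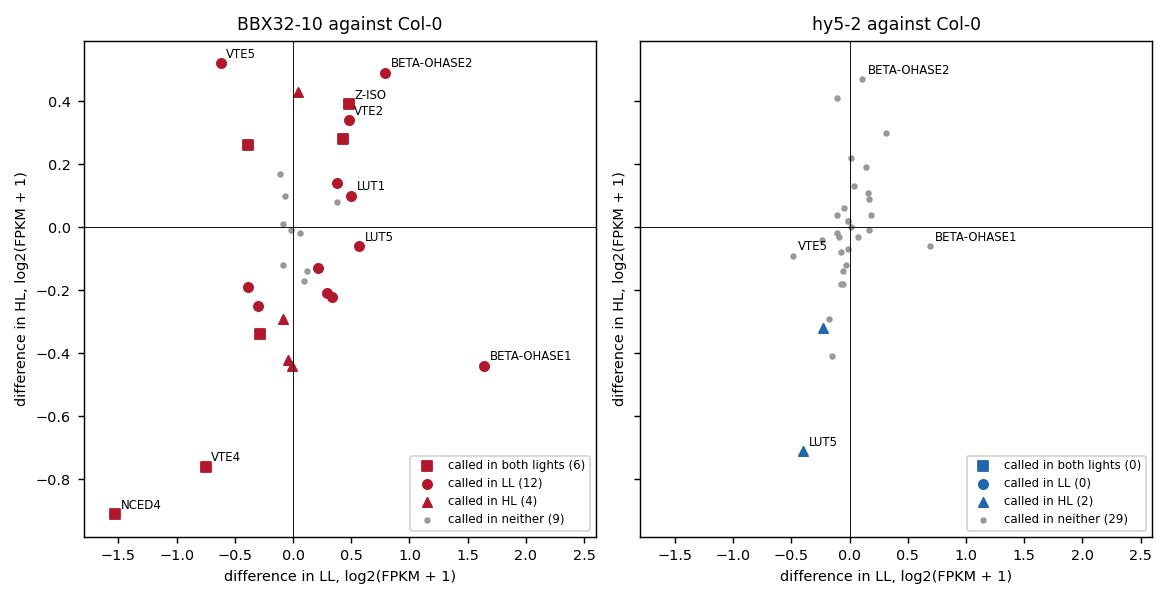
Difference of each altered line from Col-0 in LL (x axis) and in HL (y axis), in log2(FPKM + 1), for the 31 tested genes, with BBX32-10 and hy5-2 in a panel each. In the BBX32-10 panel BETA-OHASE1 lies at 1.64 on the LL axis and −0.44 on the HL axis, and in the hy5-2 panel LUT5 lies at −0.40 and −0.71.

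Direct comparison of the 2 altered lines used libraries shared with the comparisons above. In HL, 8 genes were higher and 9 lower in hy5-2 than in BBX32-10, where 11.6% of all tested genes were higher and 21.0% lower (32.5% together). In LL, 6 were higher and 10 lower, where 13.7% of all genes were higher and 25.7% lower (39.5% together). With rescaled libraries the HL split was 9 higher and 5 lower. NCED4 was higher in hy5-2 than in BBX32-10 by 1.31 (SE 0.16, adjusted p 2.22e-06) in HL and 1.42 (SE 0.16, adjusted p 5.45e-07) in LL, and VTE4 by 1.07 (SE 0.09, adjusted p 1.85e-08) in HL and 1.05 (SE 0.09, adjusted p 1.3e-08) in LL. LUT5 was lower in hy5-2, at −0.65 (SE 0.10, adjusted p 3.79e-05) in HL and −0.97 (SE 0.10, adjusted p 1.76e-07) in LL, and so was CCD1, at −0.47 (SE 0.08, adjusted p 6.37e-05) in HL and −0.61 (SE 0.08, adjusted p 1.71e-06) in LL. LUT2 was also lower in hy5-2 in HL (−0.46 (SE 0.09, adjusted p 0.000343)) and in LL (−0.50 (SE 0.09, adjusted p 0.000114)). Z-ISO was lower in hy5-2, at −0.35 (SE 0.09, adjusted p 0.00358) in HL and −0.60 (SE 0.09, adjusted p 1.17e-05) in LL, the HL call being lost with rescaled libraries. BETA-OHASE1 differed in LL (−0.94 (SE 0.18, adjusted p 0.000287)) and did not pass in HL (0.38 (SE 0.18, adjusted p 0.114)), where it passed without BBX32-10 HL replicate 1, at 0.65 (adjusted p 0.000139).

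Levels differed widely within the pathway, on the FPKM scale, which is per length. In Col-0 LL the order of the means began with VTE3, ABA1, DXS, HDR, NCED4 and PSY and ended, among tested genes, with BETA-OHASE1, MCT, BETA-OHASE2 and LUT1. In Col-0 HL it began with VTE3, HDS, ABA1 and PSY. BETA-OHASE1 held rank 11 in Col-0 HL and rank 28 in Col-0 LL, and NCED4 rank 15 in Col-0 HL and rank 5 in Col-0 LL. Neighbours in these orders often overlapped in their libraries: in Col-0 LL, ABA1 had 239 to 276 FPKM, DXS 227 to 247 and HDR 209.9 to 244.

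Other plastid isoprenoid genes, for plastoquinone, phylloquinone, prenyl chains and plastoglobule proteins, were taken as a list of 18 tested genes. In HL, 3 rose and 2 fell in BBX32-10, 10 rose and 4 fell in hy5-2, and 11 rose and 4 fell in Col-0. These are 27.8% of the list in BBX32-10, 77.8% in hy5-2 and 83.3% in Col-0, beside 19.6%, 43.5% and 51.6% of all tested genes. The difference of responses between BBX32-10 and Col-0 passed for 1 gene with a more positive and 5 with a more negative response in BBX32-10. Among all tested genes, 6.95% and 12.9% passed in those directions. SPS1 and SPS2 encode solanesyl diphosphate synthases, which make the side chain of plastoquinone. SPS1 averaged 64.1 ± 19.2 FPKM in BBX32-10 HL and 62.4 ± 10.2 in BBX32-10 LL, against 92.7 ± 12.2 in Col-0 HL and 34.8 ± 1.54 in Col-0 LL, and the responses differed by −1.37 (SE 0.21, adjusted p 0.000135). SPS2 differed in its response by −1.10 (SE 0.17, adjusted p 0.000164), and TAT1, a tyrosine aminotransferase gene upstream of HPPD, by −1.06 (SE 0.17, adjusted p 0.000178). FBN1a, a gene for a plastoglobule fibrillin, was lower in BBX32-10 than in Col-0 in LL, at −1.30 (SE 0.18, adjusted p 6.27e-06), and rose in HL by 1.51 (SE 0.18, adjusted p 6.07e-06) in BBX32-10, 1.26 (SE 0.18, adjusted p 9.51e-06) in hy5-2 and 0.88 (SE 0.18, adjusted p 0.000313) in Col-0. Of 11 tested genes of the cytosolic mevalonate pathway, the separate route to IPP, 0 passed limma's test in BBX32-10 in HL (1 at an unadjusted p under 0.05, 0 by voom), 1 rose and 4 fell in hy5-2, and 1 rose and 5 fell in Col-0. The share called was 45.5% of the 11 in hy5-2 and 54.5% in Col-0, near the 43.5% and 51.6% of all tested genes. The median HL response of these 11 genes (log2) was −0.04 in BBX32-10, −0.23 in hy5-2 and −0.31 in Col-0, beside 0.02, 0.00 and 0.05 for all tested genes.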

How the data were processed

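The libraries were made from total RNA of single plants, and the deposited values are FPKM per gene, computed by the authors, with gene lengths and the use of strand not given in the sources used here. The submitters' processing notes name CASAVA, HISAT2 2.0.5, HTSeq 0.6.1, DESeq2 1.20.0 and DESeq, and the build TAIR10, without their roles. The 32 genes and the other gene lists were chosen with earlier results of these data known.

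FPKM was transformed as log2(FPKM + 1), which understates the change of low genes. All 17788 genes that reached 1 FPKM in 4 or more libraries were fitted with group means over all 24 libraries in limma 3.58.1 (R 4.3.3), with eBayes and an intensity trend. In each of 11 comparisons, two-sided p-values were adjusted by Benjamini-Hochberg over all fitted genes and called below 0.05. The procedure was tested on simulated data. The exact scale of 1 fragment was recovered from the FPKM steps with the mean annotated transcript length, and at least 98.3% of genes above 0 came out whole (within 0.05) in every library. Fragments and zeros carry counting error and the differences between plants. They may also depend on how overlapping genes were counted, which was not tested.

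The fits were repeated with 0.1 as pseudocount, with every gene above 0, with genes averaging 5 FPKM or more, with rescaled libraries (divided by the median ratio to the gene-wise geometric mean), with only the groups compared, with the replicate number as a block, with limma voom on recovered fragments, and with each library left out. Values of every library are given for 12 branch-point genes and for up to 3 called genes per direction with the largest change in each comparison; genes of other lists are named at a log2 change of 1 or more. Gene positions and promoters come from the RefSeq copy of TAIR10.1, which held 32548 of the deposited gene IDs, 99.95% of them with the same start and end. Protein sequences were not used here.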

Additional observations from a re-analysis of the deposited data

Results flagged for a closer look

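In 186 groups of 4 libraries, GGPS1 left out, 14 held a library whose gap to the nearest other exceeded Dixon's 95% critical value; chance gives about 1 in 20. The library hy5-2 LL replicate 4 accounted for 7 of the 14. It held 81.9 FPKM of DXR (133 to 138 in the other hy5-2 LL libraries), 22 of CMK (38.5 to 40.5), 269.8 of HDR (219.8 to 223), 12.4 of CRTISO (19.8 to 20.6), 41 of LUT2 (53.7 to 55.6), 34.1 of LUT5 (49.4 to 52.1) and 13.5 of VTE5 (27.8 to 29.5). Without it, MCT (−0.52) and LUT5 (−0.45) passed as differences between the hy5-2 and Col-0 responses, where 0 genes passed with it; of all tested genes, 1.78% passed without it and 0.652% with it.

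BBX32-10 HL replicate 1 held 135 FPKM of BETA-OHASE1, against 56.7 to 67.8 in the other BBX32-10 HL libraries, and 70.6 of VTE1, against 46 to 49.5. Without it, 19 of the 31 genes passed between BBX32-10 and Col-0 in HL in place of 10, with BETA-OHASE1 at −0.72 and VTE5 at 0.68, and 14 passed for the difference of responses in place of 10. Over all tested genes the calls rose as well, to 35.3% without it against 23.6% with it between BBX32-10 and Col-0 in HL, and to 27.0% against 19.8% for the difference of responses.

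Elsewhere, LUT1 (12.7 FPKM, others 14.8 to 15.2) and NPQ1 (30.3, others 35.7 to 36.7) were low in hy5-2 HL replicate 1. NPQ1 (39.9, others 35.5 to 36.3) and NCED4 (95.3, others 68.2 to 69.2) were high in BBX32-10 LL replicate 4, and ABA1 was high in Col-0 LL replicate 3 (276, others 239 to 245). GGPS1, where 3 zeros and 1 value fix the gap at its maximum, was above 0 in BBX32-10 HL replicate 3 (0.0122) and Col-0 LL replicate 3 (0.0544) alone.

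The HL response differed between BBX32-10 and Col-0 by limma for 10 genes (adjusted p under 0.05). The BBX32-10 response minus the Col-0 response (log2) was 1.14 for VTE5, 0.65 for DXS and 0.39 for HDR. It was −2.07 for BETA-OHASE1, −0.63 for LUT5, −0.55 for VTE1, −0.50 for ZDS, −0.40 for LUT1, −0.35 for PSY and −0.27 for IPP2.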

How the results depend on the processing

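Of 129 called pairs of gene and comparison, 91 passed in the same direction under each alternative and with each library left out; no pair changed sign. The other 38 missed the threshold under at least 1 of these. Rescaling the libraries shifted the median of all genes by −0.08 to 0.10 (log2) and lost 20 pairs. Fitting only the groups compared lost 21, no filter on low values 4, the replicate block 5, voom 1, and the other pseudocount and the stricter filter 0.

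The number of genes called moved by over 1.5 times in these cases. Only the groups compared gave 5 for BBX32-10 against Col-0 in HL, 1 (BETA-OHASE1) for hy5-2 against Col-0 in LL, 1 (BETA-OHASE1) for the hy5-2 and Col-0 responses, and 11 for hy5-2 against BBX32-10 in HL. Rescaling gave 1 for hy5-2 against Col-0 in HL, and 6 for the BBX32-10 and Col-0 responses, of which 5 were shared with the 10. The causes were not tested.

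With each library left out, the counts were 9 to 15 (HL in BBX32-10), 20 to 22 (HL in hy5-2), 22 to 23 (HL in Col-0), 7 to 19 (BBX32-10 against Col-0 in HL), 15 to 18 (the same in LL), 1 to 2 (hy5-2 against Col-0 in HL), 0 to 1 (the same in LL), 7 to 14 (BBX32-10 and Col-0 responses), 0 to 2 (hy5-2 and Col-0 responses), 15 to 23 (hy5-2 against BBX32-10 in HL) and 13 to 18 (the same in LL).

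The replicate numbers do not pair the libraries: the deviations of same-numbered libraries correlated at −0.53 to 0.47 over 60 pairs, 12 of them above 0.1, and 3 of 24 libraries correlated best with their own number. With the replicate block, 12 genes passed for HL in BBX32-10, 20 in hy5-2, 22 in Col-0, 10 and 18 for BBX32-10 against Col-0 in HL and LL, 2 and 0 for hy5-2 against Col-0, 8 and 0 for the differences of responses, and 17 and 15 for hy5-2 against BBX32-10.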
